A study of Mus musculus with 2 samples.

Results

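Arhgef10l, a gene on mouse chromosome 4, was examined for DNase I hypersensitive sites, places where the DNA is exposed to that enzyme. The members were all peaks with their summit in a 200 kb window of mm9 that holds the gene, 20.4 kb beyond its end and 28.1 kb before its first start. This gave 165 peaks of 400000 in the 4 deposited lists: 60 in G1E list 1, 56 in G1E list 2, 20 in G1E-ER4 list 1 and 29 in G1E-ER4 list 2. The locus was selected on the presence of many peaks in both G1E lists that neither G1E-ER4 list had, so that contrast is given as a description and was not tested.

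G1E cells are a male erythroid progenitor line of strain 129 without Gata1, a transcription factor needed for red cells to mature, and they were untreated. Their labels give the age as embryonic stem cell stage. G1E-ER4 cells are of the same strain and sex, carry restored Gata1 that estradiol switches on, and were collected after 24 h in 10 nM beta-estradiol. For either state there was 1 sample, with its peaks deposited as 2 lists that may or may not stem from separate cultures. Cell line, restored gene and treatment differ together and cannot be told apart. Every list held 100000 peaks, so a peak's strength is given only as its percentile of F-seq signal within its own list, where 100 is the strongest, and a site missing from a list may still have had signal below the list's end. Promoter peaks of the erythroid genes Klf1, Tal1, Gfi1b, Epor, Zfpm1, Nfe2, Lmo2, Kit and Slc4a1 were in all 4 lists. So were those of all 3 megakaryocyte genes examined, of 1 of 4 myeloid genes (Csf1r) and of 2 of 4 liver and neural genes (Apoa1 and Olig2). Of the lymphoid genes Cd3e, Cd79a and Cd4, none had a promoter peak in all 4 lists, with Cd79a and Cd4 each having one in 1 list and Cd3e in none.

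Arhgef10l encodes a guanine nucleotide exchange factor, a protein that switches on small GTPases by loading them with GTP. Such switches are known for their control of the actin cytoskeleton, which is remodelled when red cell precursors divide and expel the nucleus. A gene with several transcription starts can make proteins or RNAs of different lengths from each, and open chromatin at a start marks a place where the transcription machinery can reach the DNA, not how much RNA is made.

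In the GENCODE annotation the gene spans chr4:140070400-140221927 on the minus strand, 152 kb, with 28 exons in its longest transcript, Arhgef10l-001, and 12 annotated starts for 14 transcripts. Introns are numbered here along Arhgef10l-001. The following sequences are shown because the results turn on these places. They were read from mm9 on the minus strand, the strand of the gene, 5' to 3', with GATA words in capitals (AGATAA, or the same with T as first base, G as last base or both, on either strand). They are the 200 bases before the start of the internal transcript Arhgef10l-004 (chr4:140140259-140140458), the 200 bases around the summit of the G1E-only peak with the highest mean percentile, in intron 7 (chr4:140142506-140142705), and the 200 bases around the summit of the G1E-only peak in intron 20 (chr4:140111275-140111474).
Before the Arhgef10l-004 start: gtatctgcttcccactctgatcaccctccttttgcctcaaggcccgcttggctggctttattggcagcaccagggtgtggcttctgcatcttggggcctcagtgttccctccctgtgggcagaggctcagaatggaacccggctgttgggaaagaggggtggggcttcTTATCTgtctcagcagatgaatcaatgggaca
Intron 7: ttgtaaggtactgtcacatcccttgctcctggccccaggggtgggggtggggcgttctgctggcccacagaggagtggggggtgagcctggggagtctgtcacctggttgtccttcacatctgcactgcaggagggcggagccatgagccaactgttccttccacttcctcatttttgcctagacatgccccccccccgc
Intron 20: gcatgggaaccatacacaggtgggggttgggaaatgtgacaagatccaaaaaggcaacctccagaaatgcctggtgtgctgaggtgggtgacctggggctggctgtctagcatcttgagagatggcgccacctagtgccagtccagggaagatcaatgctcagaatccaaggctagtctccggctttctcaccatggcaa
The Arhgef10l-004 promoter held 1 GATA word, TTATCT, which is AGATAA on the other strand, with 26 bases between it and the start. The other sequences had none. Of 69971 stretches of 200 bases before annotated starts of protein-coding genes, 19% held a GATA word. The first bases of the intron 7 sequence lie in a coding exon that Arhgef10l-001 skips and other transcripts, Arhgef10l-003 among them, use. This sequence held 3 CpG dinucleotides, the Arhgef10l-004 sequence 2 and the intron 20 sequence 2.

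The starts of Arhgef10l fell into distinct groups by their peaks. A start was counted as having a peak when a peak reached within 1000 bp of it. At the most upstream starts, those of Arhgef10l-001 (chr4:140221927) and of Arhgef10l-201 and Arhgef10l-202 (chr4:140221820), none of the 4 lists had a peak. The next group lay 16.7 to 17.3 kb downstream and had peaks in all lists. Its best peak stood at percentile 42.4 in G1E list 1, 42.6 in G1E list 2, 56.4 in G1E-ER4 list 1 and 75.7 in G1E-ER4 list 2. Both G1E-ER4 values lay above both G1E values there, but the G1E-ER4 list 1 peak at 56.4 was one that no G1E peak overlapped, and its peak that G1E peaks did overlap stood at 50.6.

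The internal starts showed the reverse. The start of Arhgef10l-004 at chr4:140140258 lay 81.7 kb into the gene, and those of Arhgef10l-005 and Arhgef10l-009 at chr4:140137733 and chr4:140137717 lay 84.2 kb into it. In G1E list 2 a single peak, chr4:140137080-140142204, covered the 3 starts at percentile 96.1. At 5125 bp it was the widest peak of the locus, a width that 0.711% of that list's peaks reached. In G1E list 1 the same stretch held 2 peaks, chr4:140136990-140139122 at percentile 90.6 and chr4:140139446-140141430 at 90.7. The summits in lists 1 and 2 lay 80 and 86 bp before the Arhgef10l-004 start, inside the promoter sequence shown above. Neither G1E-ER4 list had a peak between chr4:140136336 and chr4:140144291, a stretch of 7.96 kb. The nearest G1E-ER4 peaks on either side were weak, at percentile 28.7 in list 1 (chr4:140135912-140136335, in intron 10) and 2.59 in list 2 (chr4:140144292-140144636, in intron 7).

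Other internal starts followed with lower ranks. The start of Arhgef10l-011, a transcript that retains an intron, lies at chr4:140147955. It was covered by a peak at percentile 77.0 in G1E list 1 and 88.8 in G1E list 2, and no G1E-ER4 list had a peak within 1000 bp. Near the start of Arhgef10l-008 (chr4:140172980) the G1E peaks stood at 52.1 and 17.8, again with none in G1E-ER4. The start of Arhgef10l-006 (chr4:140133009) had weak peaks in both G1E lists, at 35.9 and 15, that did not overlap each other, and the start of Arhgef10l-010 (chr4:140124296) had a peak in G1E list 2 alone, at 49.2. The plot of the annotated starts shows these values side by side.

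**Figure D1:**
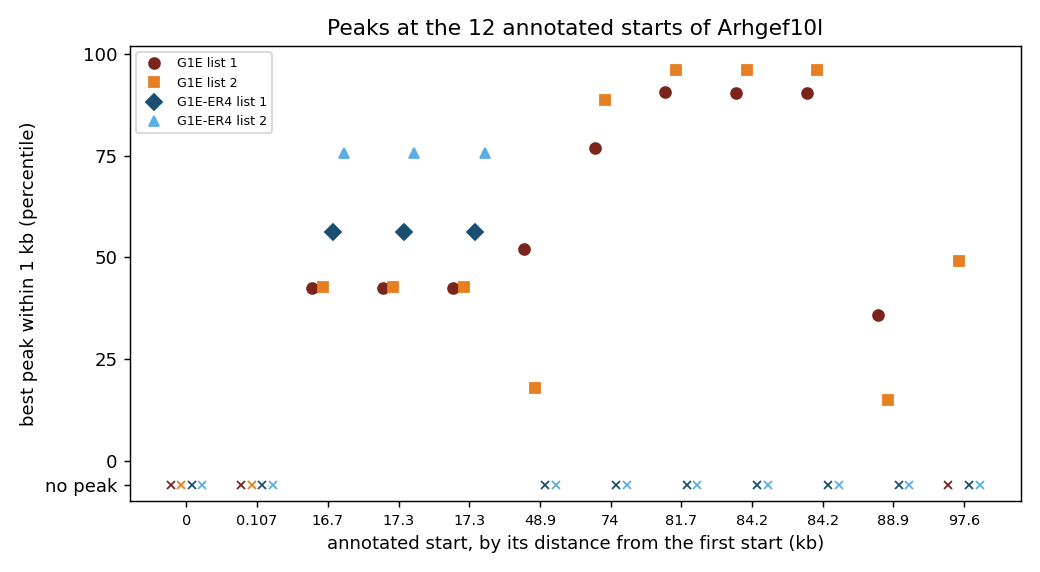
Percentile of the best peak within 1 kb (y axis) at each of the 12 annotated starts of Arhgef10l, ordered by distance from the first start in kb (x axis). Each symbol is 1 list and a cross marks no peak. The upstream group at 16.7 to 17.3 kb has all 4 lists, and the starts from 48.9 kb on have G1E symbols only.

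Over the whole window, 24 of 60 peaks in G1E list 1 (40.0%, Wilson 95% interval 28.6 to 52.6%) and 20 of 56 in G1E list 2 (35.7%, 24.5 to 48.8%) were G1E-only. A peak was called so when it overlapped a peak of the other list of its state by at least 1 bp and no peak of the other state. Among all peaks of the same lists the shares were 9.41% and 8.23%, and on chromosome 4 they were 8.94% and 8.25%. In the other direction 2 of 20 peaks of G1E-ER4 list 1 and 2 of 29 of G1E-ER4 list 2 were G1E-ER4-only, against 7.14% and 5.95% of those lists. These intervals cover counting error only, and the choice of the locus fixed the direction. Joined where they overlapped, the G1E-only peaks made up 19 separate stretches with 28.8 kb in all.

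The count depended on how a site was matched. With the summits required to lie within 100 bp, 12 peaks of each G1E list were G1E-only (20.0% and 21.4%, against 10.1% and 10.2% of all peaks), and with 50% reciprocal overlap 14 and 13 were. Without G1E-ER4 list 1 the counts in the window were again 24 and 20, while the shares over all peaks rose to 15.8% and 13.9%. Without G1E-ER4 list 2 they were 33 and 31 (55.0% and 55.4%, against 20.6% and 17.7%). With no partner list required they were 40 in list 1 and 34 in list 2 (66.7% and 60.7%, against 29.8% and 34.1%). Each of these settings narrowed the ratio to the background, compared with the main matching rule.

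**Figure D2:**
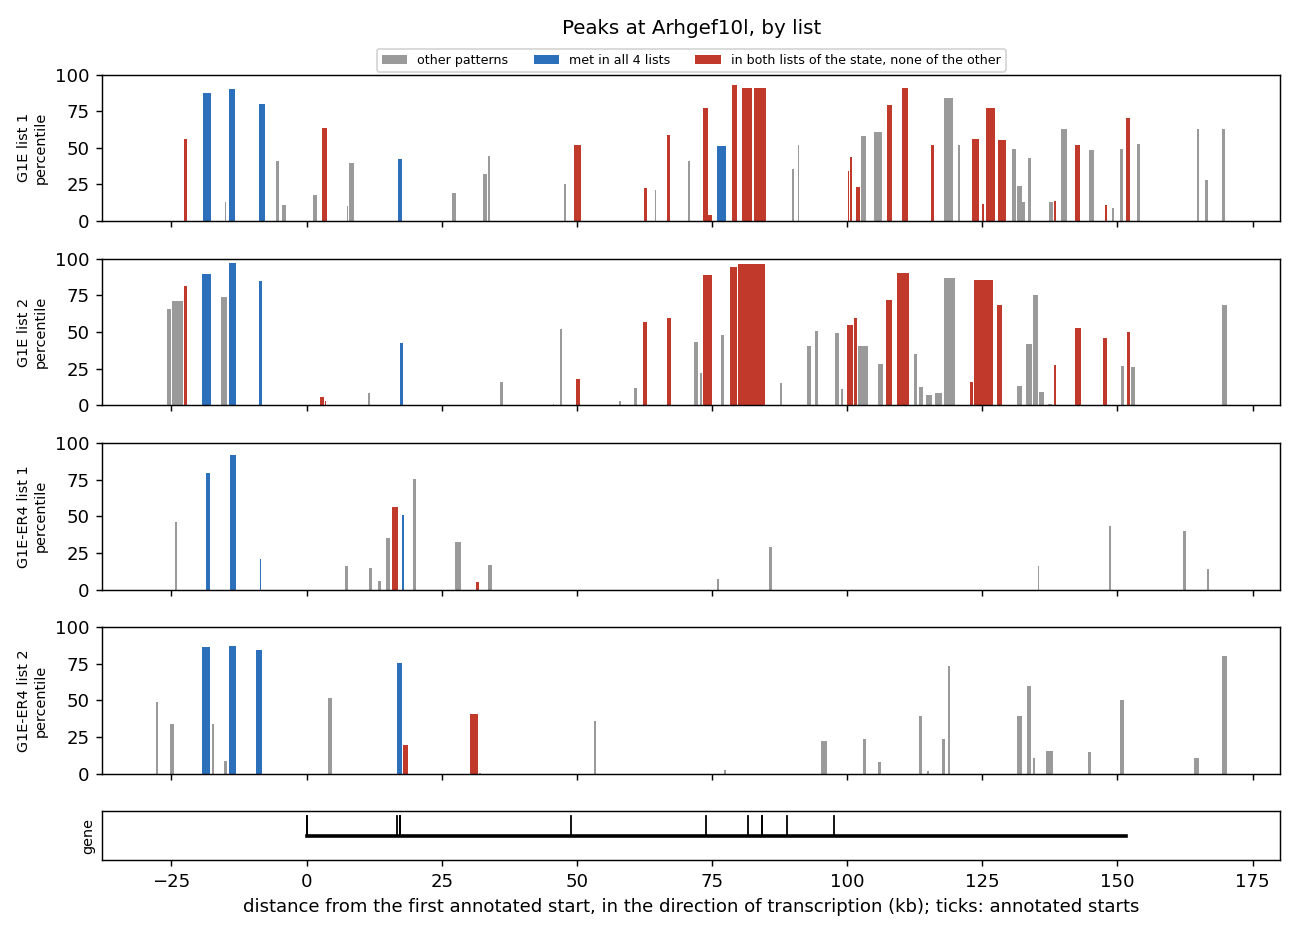
Peaks of the window in each list, drawn at their position in kb from the first annotated start in the direction of transcription (x axis), with bar width the peak width and bar height the percentile within the list (y axis). The bottom row shows the gene and its 12 annotated starts. G1E-only peaks (red, upper 2 rows) lie mostly between the internal starts and the gene's end, where the G1E-ER4 rows have no red bar; red there marks G1E-ER4-only peaks and blue, in every row, peaks met in all 4 lists.

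Most G1E-only peaks were intronic and lay in the downstream part of the gene. Their summits were in introns for 20 of 24 peaks in G1E list 1 and 18 of 20 in G1E list 2, with 2 and 0 in exons and 2 in each list outside the gene. The G1E peaks as a whole were placed similarly, with 48 of 60 and 46 of 56 having their summit in the gene. Between the gene's end and the Arhgef10l-006 start, 62.6 kb, lay 13 and 10 of the G1E-only peaks, and 28 and 27 of all G1E peaks. In the 15.9 kb from that start to 1 kb past the Arhgef10l-011 start 5 of 6 and 3 of 5 peaks were G1E-only. In the next 54.7 kb 3 of 9 and 3 of 10 were. The stretch with the upstream starts (18.3 kb) held 1 and 2, both lists meeting in intron 1 at chr4:140218214-140219412.

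The strongest G1E-only peak by mean percentile lay in intron 7 at chr4:140142231-140143567 in list 2, at percentile 94.6, with its list 1 partner at 93.1. The summits were 8 bp apart. The promoter peak of Arhgef10l-004 came next. Next by rank was a peak in intron 20 (chr4:140110437-140112611), at 90.8 in list 1 and 90.1 in list 2, with summits 6 bp apart. After it came the Arhgef10l-011 promoter peak, and then a peak of 3604 bp in intron 24 (chr4:140094918-140098521) at percentile 85.8 in list 2, which met 3 peaks of list 1, the best at 77.2. In the 4 highest-ranked sites the summits of both lists thus lay 2 to 8 bp apart, while over all 20 peaks of list 2 the median distance was 139 bp and 9 had it within 100 bp. The nearest summit of any G1E-ER4 peak was at a median of 2.5 kb in list 1 and 2.49 kb in list 2, and at most 9.32 kb.

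These peaks ranked higher than G1E-only peaks did over the genome. Their median percentile was 55.7 in list 1 and 58.3 in list 2, against 39.3 and 49.0 for all G1E-only peaks. Above percentile 90 the whole of list 1 had 21 G1E-only peaks, of which 4 were at Arhgef10l, and list 2 had 54, of which 3 were. Weak members were present too, since 6 and 4 of them stood at or below percentile 25, down to 4.41 and 3.11. They were also wide, with a median of 812.5 and 806.5 bp against 431 and 601 bp for all G1E-only peaks. The G1E peaks of the window as a whole were wide too, with a median of 659.5 and 774 bp against 520 and 646 bp for all peaks of the lists. The plot of ranks shows the spread in each list.

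**Figure D3:**
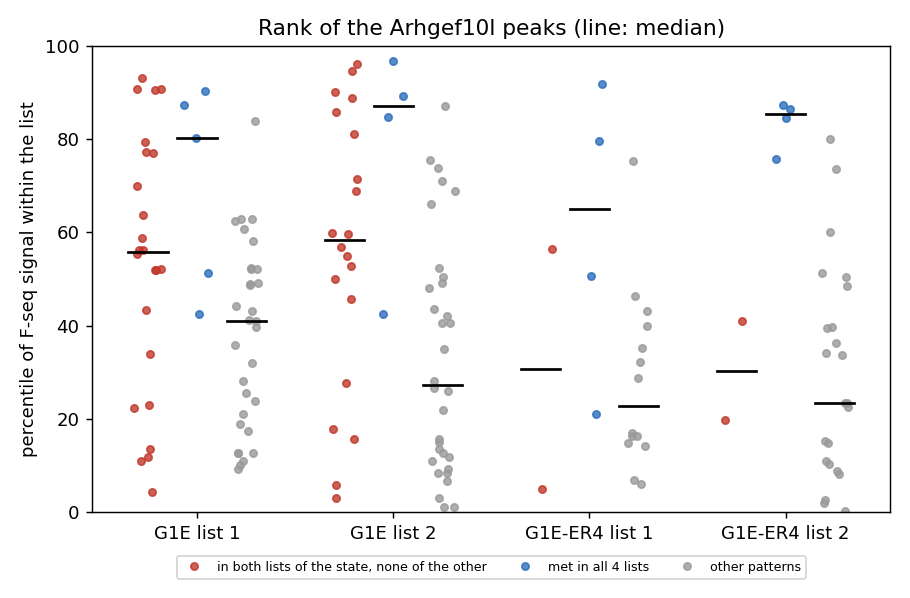
Percentile of signal within the list (y axis) for every peak of the window, by list (x axis) and by the lists it met (colour); each point is 1 peak and the black line the median. G1E-only peaks spread from 4.41 to 93.1 in list 1 and from 3.11 to 96.1 in list 2, while the 4 G1E-ER4-only peaks stay at or below 56.4.

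Few sites of the window were in all 4 lists. That held for 5 of 60 and 4 of 56 G1E peaks (8.33% and 7.14%) and for 4 of 20 and 4 of 29 G1E-ER4 peaks (20.0% and 13.8%), against 35.6%, 32.9%, 35.3% and 33.7% of all peaks in the same order of lists. The strong ones lay upstream of the gene, between it and Rcc2. The strongest was at chr4:140234957-140236224, over the start of Gm13025, a noncoding transcript on the opposite strand. G1E lists 1 and 2 had it at percentiles 90.4 and 96.8, and G1E-ER4 lists 1 and 2 had it at 91.9 and 87.4. A second site inside Gm13025 (chr4:140239515-140241270) stood at 87.4 and 89.3 in G1E, with 79.6 and 86.5 for G1E-ER4. The states overlapped in rank at the first of these sites, and at the second both G1E values were above both G1E-ER4 values. The site at chr4:140230111-140230727, between genes, stood at 80.2 and 84.8 in G1E and 84.5 in G1E-ER4 list 2, but at 21.1 in G1E-ER4 list 1. Inside the gene each list had a peak near the upstream starts that met peaks of all 4 lists. Only those of G1E list 1 and G1E-ER4 list 2 covered the Arhgef10l-002 and Arhgef10l-003 starts. The peaks of G1E list 2 (chr4:140204059-140204564) and G1E-ER4 list 1 (chr4:140203952-140204359) did not reach these starts. In intron 7, 1 peak of G1E list 1 (chr4:140144422-140145974, percentile 51.2) was also in all 4 lists and met weak G1E-ER4 peaks at 6.84 and 2.59.

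Some sites of G1E met a peak in G1E-ER4 list 2 alone. For 11 peaks of G1E list 2, G1E list 1 and G1E-ER4 list 2 had a peak and G1E-ER4 list 1 had none. No G1E list 2 peak had the reverse pattern. Meeting G1E-ER4 list 1 and no other list were 4 peaks of G1E list 1 and 2 of G1E list 2. For G1E-ER4 list 2 these counts were 2 and 3. The share of all peaks with such patterns is not given here, so the counts are not read as particular to the locus. Most of the 11 were in introns, and the others lay in exon 28, in Gm13025 and beyond the gene's 3' end. The strongest inside the gene was in intron 21 (chr4:140101897-140104024), at 83.8 and 87.1 in the G1E lists. It met 2 peaks of G1E-ER4 list 2, chr4:140102860-140103276 at 73.7 and chr4:140103900-140104455 at 23.4. Neither covered the G1E summits, and their own summits lay 529 and 623 bp from the nearest G1E summit. A site in intron 25 (chr4:140087729-140088847) stood at 43.1 and 42.0 in G1E and higher, at 60.0, in G1E-ER4 list 2. Beyond the 3' end, chr4:140051725-140052542 stood at 62.9 and 68.8 in G1E and 80.1 in G1E-ER4 list 2. Downstream of the Arhgef10l-006 start within the gene G1E-ER4 list 1 had 2 peaks and list 2 had 13, so the 2 G1E-ER4 lists differ in how many peaks they hold there. The longest stretch of the gene without a peak was 49215 bp in G1E-ER4 list 1 (chr4:140086697-140135911) and 23783 bp in G1E-ER4 list 2 (chr4:140144637-140168419), against 13701 and 17854 bp in G1E lists 1 and 2. Of the window's length, 23.9% and 28.1% lay under peaks of G1E lists 1 and 2, against 5.38% and 10.7% for G1E-ER4.

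The G1E-ER4-only peaks lay in intron 1. One pair was at chr4:140190104-140190501 in list 1 and chr4:140190199-140191682 in list 2, at percentiles 5.07 and 41.0. The others lie at the upstream starts. A peak of list 1 at chr4:140205084-140206057 (percentile 56.4) covered the Arhgef10l-012 start and overlapped the promoter peak of list 2 and no G1E peak, and a peak of list 2 at chr4:140203144-140204010 (19.7) overlapped the promoter peak of list 1. Their partners in the other G1E-ER4 list were themselves met by G1E peaks. With summits within 100 bp, or with 50% reciprocal overlap, no peak of either list was G1E-ER4-only. Over all peaks of lists 1 and 2 the shares were 3.76% and 3.69% by the first rule and 5.06% and 4.61% by the second.

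Toward lower positions the high count of G1E-only peaks ended near the gene's end, and toward higher positions it fell off inside the gene. The number of G1E peaks of any kind was also lower just below the window and in the window's upper part. In 50 kb bins the 4 bins of the window, from its lower edge up, held 8, 11, 3 and 2 G1E-only peaks in list 1. These were of 21, 18, 9 and 12 peaks of any kind. In list 2 they held 7, 7, 3 and 3, of 15, 22, 8 and 11. The bin just below the window held 0 of 1 in each list, and the first bin above it held 2 of 18 and 2 of 20. The 36 bins on both sides, out to 1000 kb from the window's centre, held 0 to 2 and 0 to 3, with a median of 0 in each. In those flanks 7.36% and 6.91% of G1E peaks were G1E-only, near the shares over all peaks. Just inside the window's lower edge the nearest G1E peaks stood at percentiles 62.9 and 68.8, and just outside it at 40.5 and 48.6, 39.7 and 33.4 kb away. At the upper edge they stood at 56.2 and 66.1 inside and 64.2 and 50.2 outside. The next protein-coding gene upstream, Rcc2, which encodes a regulator of chromosome condensation and mitosis (chr4:140256456-140279135), had its best promoter peak at 98.0 and 97.4 in G1E lists 1 and 2, with 97.8 and 98.0 for G1E-ER4, and no G1E-only peak in its body. Gm9867, the next one on the other side, had promoter peaks only in G1E-ER4 list 2 and G1E list 1, at 23.0 and 17.5.

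**Figure D4:**
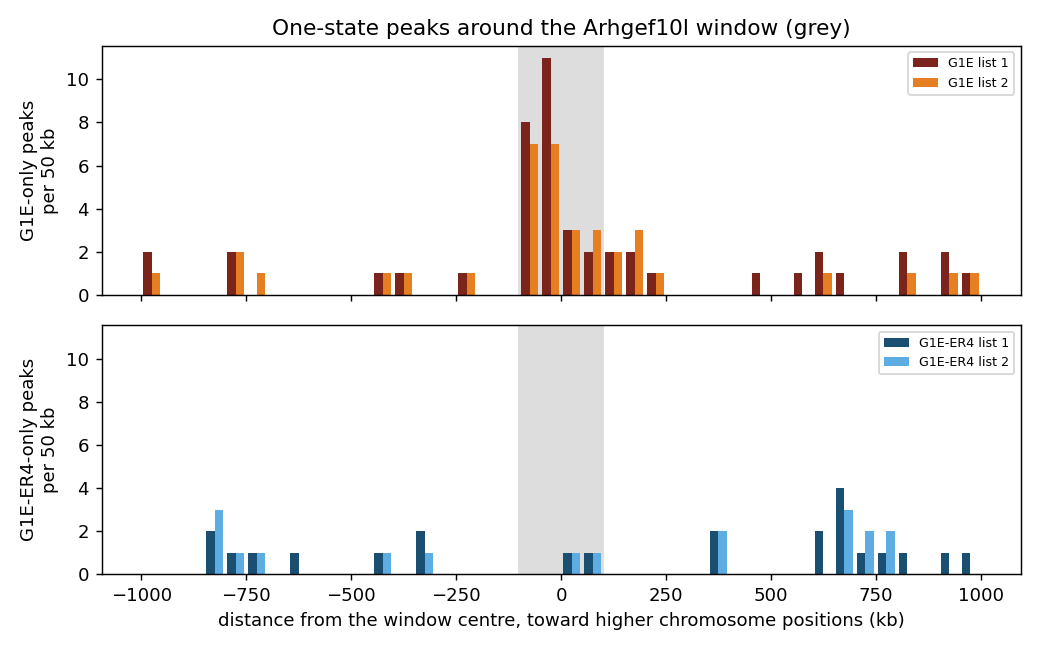
Number of G1E-only (top) and G1E-ER4-only (bottom) peaks per 50 kb bin (y axis) by distance from the centre of the Arhgef10l window in kb (x axis), with a bar for each list. The grey band is the 200 kb window; its bins reach 11 G1E-only peaks, and no bin outside it has more than 3.

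Set against the genome in tiles of 200 kb, of which 10964 had a peak in some list, the window's smaller count of the 2 G1E lists, 20 G1E-only peaks, was reached by 6 other tiles. All 6 were on chromosome 12. On the other chromosomes the next tile had 14. The median tile had 0. The locus was chosen for such peaks, and the tiles were laid so that the window formed a tile, while clusters elsewhere may be split between tiles. The rank is therefore only a description. By total peaks the window was less extreme, with 104 tiles above it in G1E list 1, 82 in G1E list 2, 1630 in G1E-ER4 list 1 and 1003 in G1E-ER4 list 2.

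Genes were compared by the smaller count of G1E-only peaks in the G1E lists minus the larger count of G1E-ER4-only peaks in the G1E-ER4 lists, over the gene body with 10 kb on each side. Arhgef10l had 17 by this measure (23 and 19 G1E-only, 2 and 2 G1E-ER4-only) and ranked 3 among 22238 protein-coding genes. Sipa1l1 on chromosome 12 had 23, and Dnahc8 on chromosome 17 had 18, from 22 and 19 G1E-only and 1 and 0 G1E-ER4-only peaks. Rad51l1 and Ttc7b followed with 16 each and Wdr25 with 15, the 3 of them on chromosome 12. Per 100 kb, Arhgef10l had 12.2 G1E-only peaks, Wdr25 11.4, Sipa1l1 8.43, Dnahc8 7.57, Ttc7b 6.67 and Rad51l1 3.52. Arhgef10l was not the densest, since of the genes ranked just after these Tns4 had 27.5 and Dync1h1 16.4. Itpk1 had 12.2, the same rounded value as Arhgef10l. Tns4, Dync1h1 and Itpk1 are named here after their values were seen. Each gene counts once however long it is, so long genes can reach high counts. Arhgef10l was chosen for such peaks, so its rank is only a description.

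The G1E-only peaks of Arhgef10l were GC-rich, as were the peaks of the window as a whole. For most kinds of word searched, the interval of the share in these G1E-only peaks contained the share of all G1E-only peaks. Over all peaks of the window the median GC content in 200 bp around the summit was 56.5% and 55.5% in G1E lists 1 and 2. It was 54.0% and 57.0% in G1E-ER4 lists 1 and 2. Over all peaks of these lists it was 53.5%, 51.5%, 49.5% and 54.0%, in the same order. For the window's G1E-only peaks it was 58.5% in list 1 and 56.8% in list 2, against 50.5% and 50.0% for all G1E-only peaks. A GATA word was present in 4 of 24 (16.7%, Wilson 95% interval 6.68 to 35.9%) and 3 of 20 (15%, 5.24 to 36.0%), against 34.3% and 34.6% of all G1E-only peaks and 26.3% and 30.0% of all peaks of the lists. In list 2 the 3 peaks were the Arhgef10l-004 promoter, a peak in intron 4 (chr4:140154533-140155252) and a weak one in intron 1 (chr4:140218241-140218562). The word CCNCNCCC, on either strand, which factors of the KLF family bind, was in 12 of 24 (50.0%, 31.4 to 68.6%) and 8 of 20 (40.0%, 21.9 to 61.3%), against 26.4% and 27.9% of all G1E-only peaks and 33.0% and 33.1% of all peaks. Over all peaks of the window it was in 43.3% and 35.7% in G1E lists 1 and 2, and in 40.0% and 44.8% in G1E-ER4 lists 1 and 2. This word is itself GC-rich, and the part of GC content in these shares was not tested. ETS words (CCGGAA or AGGAAG) were in 33.3% and 30.0%, against 35.1% and 36.5%, and E-box words (CAGATG or CAGCTG) in 37.5% and 40.0%, against 32.1% and 30.8%. RUNX words (TGTGGT or TGCGGT) were in 4.17% (0.739 to 20.2%) and 20.0%, against 21.5% and 21.7%. An E-box with GATA (CTG, then 6 to 9 bases, then GATA) was in 16.7% and 25%, against 11.3% in each list. AT-rich control words (AGTAAA or AGTAAG) were in 4.17% and 15%, against 16.7% and 17.5%. Of the 11 kinds of word searched, the interval left out the share over all G1E-only peaks for KLF and RUNX words in list 1 and for none in list 2, so the GATA difference was within counting error at this width. In 400 bp around the summit GATA words were in 25% of the Arhgef10l peaks in each list (12 to 44.9% and 11.2 to 46.9%), against 52.1% and 52.9%, which lie above both intervals, and KLF words in 66.7% and 75%, against 40.1% and 41.7%. The control words were also lower at that width, in 12.5% (4.34 to 31.0%) and 20.0% (8.07 to 41.6%), against 32.8% and 33.4%. An E-box with GATA was in 16.7% and 30.0%, against 18.7% and 18.9%. Lists 1 and 2 hold largely the same sites, so neither repeats the other independently. A word is a match of letters and does not show that a factor was bound.

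Short tags could be placed uniquely at most of these summits. Of the 20-base words in 200 bp around each G1E-only summit, a median of 97.0% in list 1 and 98.0% in list 2 occurred once in mm9, the lowest peak having 69.1% and 82.9%. The share was at least 90% for 23 of 24 and 19 of 20 peaks. For all peaks of the window the medians were 92.3% and 97.2% in the G1E-ER4 lists and 97.2% in each G1E list.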

How the data were processed

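DNase-seq peak lists of 2 samples, 2 lists each, were used. Per the series design text, the authors aligned 20-base tags to mm9 with Bowtie, kept tags with several matches at their best place, pooled lanes per replicate, converted with SAMtools, computed an F-seq density and took peaks by a gamma fit. No source used here gives versions or the threshold, and read depth is unknown. The deposited value of each peak is that F-seq signal, with no scaling between lists stated, so it was used only as a percentile within its list.

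Peaks were kept unmerged and matched by 1 bp of overlap. Alternatives were 50% reciprocal overlap, summits within 100 bp, the top 50% of peaks, other windows, and leaving out each list. Annotation was GENCODE vM1 on NCBIM37, the same assembly as mm9. Words were searched in 200 bp around summits on both strands. Matching was tested on simulated data. Python 3.11.15, numpy 2.4.6, pandas 2.3.3 and scipy 1.17.1 were used. The locus, gene lists and words were chosen with earlier results of these data known, and no test between states was made. Single peaks named are the strongest of each class, and genes named follow fixed ranks; the sites kept in G1E-ER4 list 2 alone were picked after their values were seen. One listed erythroid marker had no entry in the annotation under the symbol used. Coordinates are 1-based. A listed gene group, a marker gene and a promoter sequence are not reported here.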

Additional observations from a re-analysis of the deposited data

How the results depend on the processing

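No paired analysis was possible because each state is 1 sample and no model was fitted. In lists 1 and 2 the main counts were 24 and 20 G1E-only and 2 and 2 G1E-ER4-only peaks. With 50% reciprocal overlap they were 14 and 13, and 0 and 0. With summits within 100 bp they were 12 and 12, and 0 and 0. In the top 50% of every list they were 13 and 11, and 2 and 1. The G1E-only shares were then 44.8% and 44.0%, against 9.49% and 8.46% of all peaks kept. The G1E-ER4-only shares were 40.0% of 5 peaks and 11.1% of 9, against 6.54% and 5.82%. With only the tested list limited to its top 50%, the G1E-ER4-only counts were 1 and 0 and the G1E-only counts 16 and 14. Leaving out each list in turn, the G1E-only counts ranged from 24 to 40 in list 1 and from 20 to 34 in list 2, and the G1E-ER4-only counts from 2 to 8 in each. The 8 arose without the other G1E-ER4 list, as 40.0% of list 1 peaks and 27.6% of list 2 peaks in the window. Over all peaks the same shares were 40.8% and 36.0%. By construction, leaving out a list that had to be met, or avoided, could only keep or raise a count. The G1E-only counts stayed at 24 and 20 without G1E-ER4 list 1, and the G1E-ER4-only counts at 2 and 2 without either G1E list. Limiting peaks to the gene body or widening the window by 50 kb kept each count within 1.5 times. In 400 bp in place of 200 bp around the summits of all peaks of the window, the share with a GATA word rose from 13.3% to 23.3% and from 23.2% to 33.9% in G1E lists 1 and 2, and from 35.0% to 40.0% and from 17.2% to 34.5% in G1E-ER4 lists 1 and 2. These shares stayed at or within the counting intervals of the 200 bp values, and median GC content moved by less than the spread between the lists of a state. The end of each list at 100000 peaks limits what counts as absent.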
